A study of Mus musculus with 2 samples.

Results

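The genes described here mark the epithelium of the lung: the surfactant genes Sftpa1, Sftpb, Sftpc, Sftpd and Abca3, the alveolar and airway genes Cxcl15, Ager, Aqp5 and Scgb1a1, and the transcription factor gene Foxa2. They were picked by name for their place in the lung, with earlier results of these data known. Every probe set whose single gene symbol in the platform annotation was one of these 10 was read. This gave 16 of the 45101 probe sets on the array, or 10 of 18193 genes with a probe set of 1 symbol. By their labels, the array labelled RP58-/- came from the diaphragm muscle of RP58 knockout mice, and the array labelled RP58+/+ from that of wild-type mice. Both were of strain C57/BL6 at stage E18.5. The tissue label and the design text describe dissected muscle, whereas the extraction protocol speaks of RNA from a culture, and the tissue label is used below without a way to settle this. RP58 is a zinc finger repressor encoded by Zbtb18. How the knockout allele was made, how many animals gave RNA and whether they were littermates is not stated in the labels or design text. The series gives 1 array per genotype.

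Pulmonary surfactant is a film of lipid and protein that keeps the air sacs from collapsing, and its production climbs steeply in late gestation. Alveolar type 2 cells make it and store it in lamellar bodies, flat alveolar type 1 cells line the surface for gas exchange, and secretory club cells lie in the airways. The diaphragm is skeletal muscle, a tissue not known for making surfactant, and it lies between the lungs above and the liver below. In whole-tissue RNA, fewer cells of a type and less RNA per cell cannot be told apart.

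Each value is a log2 signal computed by the authors with RMA, and each difference is the array labelled RP58-/- minus the array labelled RP58+/+. With 1 array per group no test was possible, no difference has a replicate check and no p-value is given. In place of a test, 1.5-fold (0.58 on the log2 scale) at the brightest probe set of a gene served as the size rule for higher and lower. A floor on the mean of the 2 arrays (log2 5.52, the 40th percentile) kept 14093 genes in the count. Repeat measurements existed only as several probe sets of 1 gene, whose differences had a pooled SD of 0.278 around the mean of their gene. This SD says nothing about the spread between embryos.

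The labels had no independent check. Zbtb18 had 1 probe set, at 9.21 on the array labelled RP58-/- and 8.91 on the array labelled RP58+/+. The labels do not say whether it lies in the deleted part, so it checks nothing. The female-specific RNA Xist read 6.96 on the array labelled RP58-/- and 11.47 on the array labelled RP58+/+, and the Y-linked gene Eif2s3y read 8.58 on the array labelled RP58-/- and 3.59 on the array labelled RP58+/+. Sex-linked signal and genotype label cannot be told apart here. All 12 listed skeletal muscle genes lay above the floor, but so did 13 of 13 liver genes, 12 of 12 mesothelium genes and 14093 of 18193 genes in all, so this count does not tell muscle from its neighbours. Skeletal actin (Acta1) read 13.36 on the array labelled RP58-/- and 13.95 on the array labelled RP58+/+. The 24 probe sets for poly-A spike-in RNAs all had negative differences (median -0.75), while the median of all genes above the floor differed by -0.003. Scaling to these spike-ins would raise every difference that follows by 0.748.

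Promoter sequences are shown for 4 of the genes, namely the pair with the largest differences among genes above the floor in the RefSeq promoter table (Cxcl15 and Ager) and the 2 surfactant genes in which searched motifs were found (Sftpa1 and Sftpb). The RefSeq table (build GRCm38.p6) held promoters for 7 of the 10 genes, and Sftpc, Sftpd and Scgb1a1 are named only. The 250 bases before the start are printed 5′ to 3′ on the strand of the gene, with matches to searched motifs in capitals.
Cxcl15, chr5:90794284-90794533, plus strand: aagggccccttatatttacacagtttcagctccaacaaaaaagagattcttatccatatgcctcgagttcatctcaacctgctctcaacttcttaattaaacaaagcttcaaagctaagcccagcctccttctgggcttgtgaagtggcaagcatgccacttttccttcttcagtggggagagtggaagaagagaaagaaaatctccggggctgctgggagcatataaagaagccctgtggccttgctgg
Ager, chr17:34597600-34597849, plus strand: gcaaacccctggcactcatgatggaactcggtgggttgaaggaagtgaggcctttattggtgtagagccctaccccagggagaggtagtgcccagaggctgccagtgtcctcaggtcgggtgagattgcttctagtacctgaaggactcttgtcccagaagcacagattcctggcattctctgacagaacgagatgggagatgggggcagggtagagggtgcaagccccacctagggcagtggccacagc
Sftpa1, chr14:41131538-41131787, plus strand: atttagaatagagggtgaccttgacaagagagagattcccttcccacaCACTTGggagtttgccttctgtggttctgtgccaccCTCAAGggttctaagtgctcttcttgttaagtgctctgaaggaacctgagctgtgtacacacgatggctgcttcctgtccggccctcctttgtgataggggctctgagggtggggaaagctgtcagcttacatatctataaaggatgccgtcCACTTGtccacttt
Sftpb, chr6:72304360-72304609, plus strand: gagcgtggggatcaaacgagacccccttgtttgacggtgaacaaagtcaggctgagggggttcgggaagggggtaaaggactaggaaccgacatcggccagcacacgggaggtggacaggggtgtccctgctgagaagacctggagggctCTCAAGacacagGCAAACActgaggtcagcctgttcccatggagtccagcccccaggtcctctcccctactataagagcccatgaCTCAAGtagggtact

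The motifs searched on both strands were CAGATGT, the core bound by RP58, the forkhead motifs TGTTTAC and TGTTTGC, and CTCAAG and CACTTG, cores of the kind bound by Nkx2-1, the homeobox factor of lung and thyroid. No match overlapped another. Sftpb held CTCAAG 100 to 95 and 15 to 10 bases before the start, and between them the reverse complement of TGTTTGC, 88 to 82 bases before it. Sftpa1 held CACTTG at 202 to 197 and at 14 to 9 bases before the start, and CTCAAG at 166 to 161. Over 32851 RefSeq promoters of the same length, 13.3% held CTCAAG, 11.6% held CACTTG and 4.3% held TGTTTGC. The RP58 core CAGATGT, which 3.71% of promoters held, and TGTTTAC (3.17%) were in none of the 7 genes' windows. No searched motif was in the windows of Abca3, Ager, Aqp5 and Cxcl15, and 1 of the 3 annotated starts of Foxa2 had CTCAAG before it. These matches describe letters in a window and show no binding.

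Most of the lung genes read higher on the array labelled RP58-/-, by very unequal amounts. Of the 16 probe sets, 15 were above 0 and 8 were higher by the size rule, against 2.71% of all probe sets with 1 symbol, and 0 were lower, against 4.81%. The median difference of all probe sets on the array was 0.02. By gene, 8 of the 10 lay above the floor, none of them with a signal under the floor on the array labelled RP58+/+. All 8 were above 0, against 49.4% of all genes above the floor. Of these 8, 5 were higher by the size rule, against 3.83% of all genes above the floor, and 0 were lower, against 6.51%. Among the 10648 genes whose mean signal fell in the same range as these 8, 3.4% were higher. At 2-fold, 3 of the 8 were higher, against 0.908% of genes. The list was chosen with earlier results of these data known, so these shares describe it and test nothing. The median of the 8 was 0.63, with a range of 0.12 to 3.64.

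**Figure D1:**
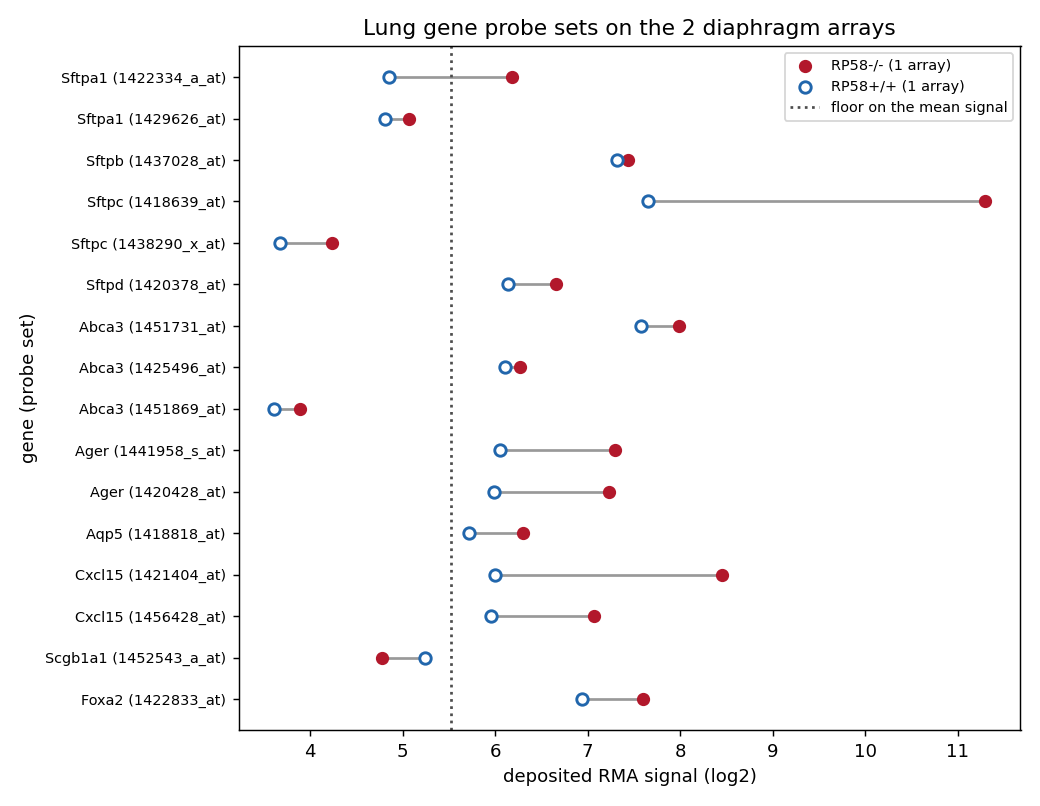
Deposited RMA signal (log2, horizontal axis) of all 16 probe sets of the 10 lung genes (vertical axis), with a filled point for the array labelled RP58-/-, an open point for the array labelled RP58+/+, a grey line joining them and the floor on the mean signal as a dotted line. The longest lines are those of Sftpc (11.30 on the array labelled RP58-/-, 7.65 on the array labelled RP58+/+) and Cxcl15 (8.46 on the array labelled RP58-/-, 6.0 on the array labelled RP58+/+), and Scgb1a1 is the only one with its filled point on the left.

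Surfactant proteins B and C are small hydrophobic proteins that spread the lipid film. Sftpc, whose expression is a defining mark of type 2 cells, reached a signal of 11.30 on the array labelled RP58-/- and 7.65 on the array labelled RP58+/+. The difference of 3.64 (12.5-fold) was 13.1 times the probe set SD and ranked 2 of 14093 genes. The second probe set of Sftpc, of the _x_at kind, some of whose probes can match other sequences, read 4.24 on the array labelled RP58-/- and 3.67 on the array labelled RP58+/+. It lay under the floor on both, where RMA compresses differences, and its own difference was 0.57. Sftpb, made by type 2 and club cells, read 7.44 on the array labelled RP58-/- and 7.32 on the array labelled RP58+/+. Its difference of 0.12 was within the probe set SD and ranked 4482, so the pair of hydrophobic surfactant proteins, both above the floor on each array, had differences 3.52 apart on the log2 scale.

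Surfactant proteins A and D are collectins, sugar-binding proteins of lung defence. Sftpd read 6.66 on the array labelled RP58-/- and 6.13 on the array labelled RP58+/+, a difference of 0.53 (1.44-fold) that stayed under the size rule. Sftpa1 was the member next to the floor: the mean of its brighter probe set lay 0.00241 below it. That probe set read 6.18 on the array labelled RP58-/- and 4.85 on the array labelled RP58+/+, a difference of 1.33 (2.51-fold) that the main count leaves out. The other probe set of Sftpa1 read 5.06 on the array labelled RP58-/- and 4.81 on the array labelled RP58+/+, a difference of 0.26. With no floor, Sftpa1 was counted too and 6 of all 10 were higher, against 3.32% of 18193 genes.

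Abca3 encodes the lipid transporter in the membrane of lamellar bodies. Its brightest probe set read 7.99 on the array labelled RP58-/- and 7.57 on the array labelled RP58+/+, a difference of 0.42 (1.33-fold). The other probe sets, at 6.27 and 3.89 on the array labelled RP58-/- and 6.10 and 3.61 on the array labelled RP58+/+, differed by 0.16 and 0.28. All 3 were above 0 and none reached the size rule.

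Cxcl15, the chemokine lungkine, which lung epithelium secretes in the mouse and which attracts neutrophils, read 8.46 on the array labelled RP58-/- and 6.0 on the array labelled RP58+/+. The difference was 2.46 (5.5-fold) and ranked 5. A second probe set, with nearly the same signal on the array labelled RP58+/+ (5.96), read 7.07 on the array labelled RP58-/-, a difference of 1.12 (2.17-fold). Both passed the size rule, but the gap of 1.34 between them was wide: of 3548 genes with 2 probe sets above the floor, 0.676% had a gap at least as large, and the median gap was 0.22.

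Type 1 cells were represented by Ager, the receptor RAGE of their basolateral membrane, and by Aqp5, the water channel of their apical membrane, which salivary gland also makes. Ager read 7.29 on the array labelled RP58-/- and 6.06 on the array labelled RP58+/+ by its brighter probe set. The other probe set read 7.23 on the array labelled RP58-/- and 5.99 on the array labelled RP58+/+. The differences of 1.24 and 1.24 (2.36-fold and 2.37-fold) were 0.00638 apart, and 98.2% of genes with 2 probe sets had a gap at least as large. Aqp5 read 6.30 on the array labelled RP58-/- and 5.72 on the array labelled RP58+/+. Its difference of 0.59 (1.504-fold) lay just inside the size rule, as that of Sftpd lay just outside, and only 0.06 separated the pair.

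Scgb1a1, the secreted uteroglobin of club cells, went the other way. Its only probe set read 4.77 on the array labelled RP58-/- and 5.24 on the array labelled RP58+/+, a difference of -0.47 (1.38-fold lower). Both signals lay under the floor, at the dim end of the scale, and its order on the 2 arrays is uncertain. Foxa2, a forkhead factor of foregut endoderm that liver also expresses, read 7.60 on the array labelled RP58-/- and 6.94 on the array labelled RP58+/+. The difference was 0.67 (1.59-fold).

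**Figure D2:**
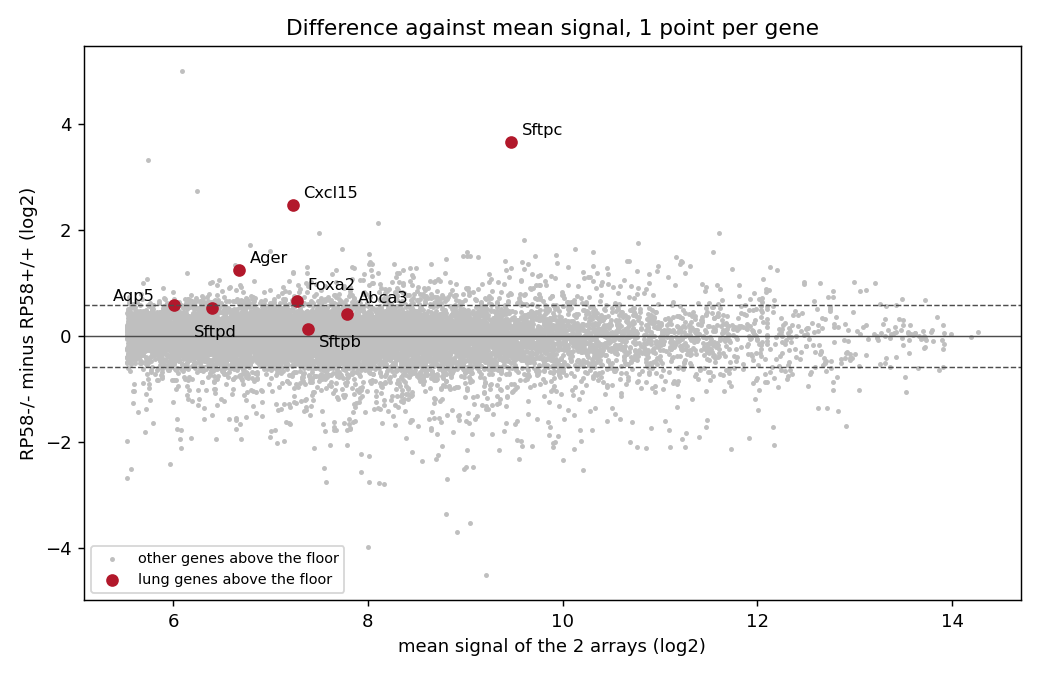
Difference between the array labelled RP58-/- and the array labelled RP58+/+ (log2, vertical axis) against the mean signal of both (log2, horizontal axis), 1 point per gene for 14093 genes above the floor, with the 8 lung genes in red and the 1.5-fold limits as dashed lines. Sftpc (3.64), Cxcl15 (2.46) and Ager (1.24) stand outside the band of most genes, and Sftpb (0.12) lies within it.

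Ordered by the difference, the genes above the floor ran Sftpc, Cxcl15, Ager, Foxa2, Aqp5, Sftpd, Abca3 and Sftpb. The steps from Sftpc to Cxcl15 (1.18), Cxcl15 to Ager (1.22) and Ager to Foxa2 (0.57) were larger than the SD of a difference between probe sets of 1 gene (0.393). The order of Cxcl15 and Ager rests on the brightest probe set: the other probe set of Cxcl15, at 1.12, lay below both of Ager, and the gap of 1.34 within Cxcl15 exceeds the step. With probe sets averaged, Cxcl15 was at 1.79 and Ager at 1.24. Each later step, from Foxa2 down to Sftpb, was smaller (0.06 to 0.29), so these neighbours are not separated by that measure. Across these 8 genes the signal ranged from 6.30 to 11.30 on the array labelled RP58-/- and from 5.72 to 7.65 on the array labelled RP58+/+. Summed on the linear scale, their signal was 3824 on the array labelled RP58-/- and 927 on the array labelled RP58+/+, a ratio of 4.13 that Sftpc dominates.

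The genes next to each higher member in the order of differences over the 2 arrays were a mixed company. Eif2s3y (4.99) and Kdm5d (3.31), both Y-linked, flanked Sftpc. Ifi202b (2.73), an interferon-inducible gene, and Defb1 (2.12), an epithelial defensin gene, flanked Cxcl15. The signals of Eif2s3y (3.59), Kdm5d (4.09) and Ifi202b (4.88) on the array labelled RP58+/+ lay under the floor. Haptoglobin (Hp, 1.26) and Serpina3n (1.24), which encode plasma proteins made in liver, flanked Ager. Foxa2 lay between Adtrp (0.67) and 4930524B17Rik (0.67), and Aqp5 between Tagln2 (0.59) and Mzb1 (0.59). The signal of 4930524B17Rik on the array labelled RP58+/+ (5.21) also lay under the floor. Likeness here is a single difference and carries little information.

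No other listed gene of the lung epithelium reached the difference of Sftpc or of the brightest probe set of Cxcl15 (2.46). Cyp2f2 (1.6) came closest. The other probe set of Cxcl15 (1.12) lay below Cyp2f2 and Gsta3 (1.30). Over 5 lists holding 61 genes of type 2, type 1, club and ciliated cells and of lung transcription factors, 46 were above the floor. Of these, 8 were higher and 2 lower by the size rule, against 3.83% and 6.51% of all genes, and the median was 0.14.

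Of 9 other type 2 cell genes above the floor, 8 were above 0, against 49.4% of all genes above the floor. By the size rule 3 were higher and 0 lower, against 3.83% and 6.51% of all genes. The median was 0.32. Slc34a2, the phosphate transporter of type 2 cells, read 8.30 on the array labelled RP58-/- and 7.69 on the array labelled RP58+/+ (0.61). Ctsh (0.82), a lysosomal protease that trims surfactant protein precursors and that many cells make, and Hc (0.79), complement C5, which liver makes in bulk, were the other higher genes. Lpcat1, which makes the main surfactant lipid, was at 0.54 by its brightest probe set and its 4 probe sets ran from -0.04 to 0.54. Napsa, the aspartic protease of type 2 cells, was at 0.27. Lamp3 had no probe set with that single symbol.

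Of 14 other type 1 cell genes, all above the floor, 2 were higher and 2 lower, against 3.83% and 6.51% of all genes. Their median was 0.14. Igfbp2, which liver also makes, was at 1.06 and Krt7, also on the mesothelium list, at 0.75. The lower genes were Clic5 (-1.23) and Lmo7 (-0.97), which skeletal muscle also expresses, and the 2 probe sets of Lmo7 ran from -0.97 to 0.28. The type 1 genes Pdpn (0.25) and Hopx (-0.34) stayed under the size rule.

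Of 9 other club cell genes above the floor, 2 were higher and 0 lower, against 3.83% and 6.51% of all genes. Their median was 0.18. Cyp2f2, the cytochrome P450 of club cells, read 7.80 on the array labelled RP58-/- and 6.2 on the array labelled RP58+/+, a difference of 1.6, and Gsta3 was at 1.30. Mouse liver makes both. Scgb3a2, a secretoglobin of the airways, was at -0.33 and its relative Scgb3a1 at 0.18. Of the 9 club cell genes, 6 were above 0, against 49.4% of all genes above the floor. None of 7 ciliated cell genes above the floor was higher or lower (median 0.01), beside the same shares of all genes. So small a list can hold no called gene at those shares. Foxj1, the factor that sets up motile cilia, was under the floor at 4.74 on the array labelled RP58-/- and 4.76 on the array labelled RP58+/+.

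Among 8 lung transcription factor genes above the floor, Cebpa (0.76), which liver and fat also express, was higher and 0 were lower. The shares over all genes above the floor were 3.83% and 6.51%, and the median of the list was 0.02. Nkx2-1, which defines the lung lineage, lay under the floor at 4.66 on the array labelled RP58-/- and 4.72 on the array labelled RP58+/+. Foxa1, the close relative of Foxa2, was at -0.34. Genes shared by most epithelia had a median of 0.21, with 3 of 13 higher and 0 lower, against 3.83% and 6.51% of all genes above the floor. The higher ones were Krt19 (1.12), Cldn3 (0.90) and Spint2 (0.72), while Epcam (0.19) and Cdh1 (0.21) stayed under the rule. Of 10 lung mesenchyme and capillary genes above the floor, 3 were higher and 0 lower, beside the same shares of all genes, with a median of 0.39. The higher genes were Tbx4 (1.0), a T-box factor of lung mesenchyme and hindlimb, Wnt2 (0.65) and Inmt (0.64). On the array labelled RP58+/+, Tbx4 (5.19) and Fgf10 (5.35) lay under the floor, so both were counted only through the array labelled RP58-/-. With the floor at the 60th percentile (log2 6.57), the median of this list was 0.13.

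**Figure D3:**
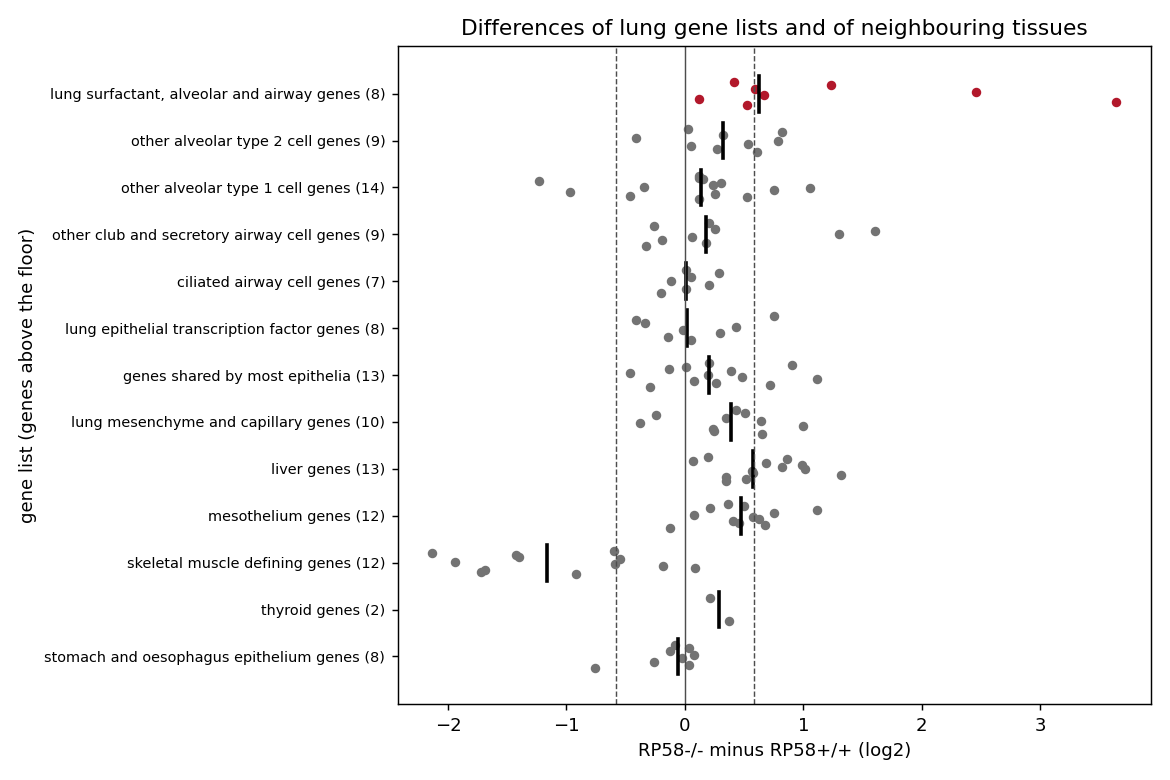
Difference between the array labelled RP58-/- and the array labelled RP58+/+ (log2, horizontal axis) for the genes of each list above the floor (vertical axis, number of genes in parentheses), 1 point per gene, with list medians as black bars and the 1.5-fold limits as dashed lines. The 10 lung genes, 8 of them plotted in red, have a median of 0.63, the lists of liver and mesothelium have medians of 0.57 and 0.48, and skeletal muscle genes have a median of -1.16.

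Markers of other tissues that a diaphragm dissection could hold also differed, liver and mesothelium in the direction of most lung genes and skeletal muscle in the other. For the counts that follow, 3.83% of all genes above the floor were higher and 6.51% lower. Of 13 liver genes above the floor, 6 were higher and 0 lower (median 0.57), and their summed linear signal was 125812 on the array labelled RP58-/- and 87741 on the array labelled RP58+/+. Hpx (1.32), Fgb (1.01) and Apoa2 (0.99) led this list. The other 7 stayed under the size rule, among them Alb (0.07), Afp (0.20) and Ttr (0.35). Of 12 mesothelium genes, 4 were higher and 0 lower (median 0.48), led by Krt19, Krt7 and Upk3b (0.68), with sums of 17311 on the array labelled RP58-/- and 11934 on the array labelled RP58+/+. Krt19 and Krt8 are also on the list shared by most epithelia, and Krt7 on the type 1 list, so these lists are not separate measurements. Of 12 skeletal muscle genes, 0 were higher and 9 lower (median -1.16), led by Actn3 (-2.13), Myh8 (-1.94) and Tnnt3 (-1.72), with sums of 39154 on the array labelled RP58-/- and 81259 on the array labelled RP58+/+. With probe sets averaged, the median of the muscle list was -0.77. The probe sets of Des, counted as lower, ran from -1.40 to 0.27. Stomach and oesophagus genes had 0 of 8 higher and 1 lower (Tff2, -0.76; median -0.06), and both thyroid genes above the floor stayed under the rule (median 0.29). The part of these tissues in the difference of the lung genes was not tested.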

How the data were processed

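RNA from 2 samples labelled as diaphragm muscle was profiled on Affymetrix arrays. The extraction protocol in the labels names a culture as its source, which the design text on dissected muscle does not, so the starting material is uncertain. The deposited log2 signals were calculated by the authors with RMA, per the labels' protocols and design text, and the submitters' processing notes name Affymetrix Expression Console 1.1. No source used here says which arrays were normalised together. The largest difference between the sorted values of the columns was 0.119, so a difference in total mRNA between the samples cannot be seen from these distributions. The poly-A spike-ins had a median difference of -0.75 and the hybridisation spike-ins one of -0.04. The cause of this was not tested. RMA gives no detection call. The design text names a smaller array type than the one whose annotation the probe sets matched.

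Probe sets with 1 gene symbol (34945 of 45101, controls left out) were kept, and no symbol changed when looked up in RefSeq by Entrez identifier. Differences, floor and size rule were computed in Python 3.11.15 (pandas 2.3.3) and loess in statsmodels 0.14.6. The calling was run on simulated data with planted differences larger than 1.5-fold, in genes whose signal lay clear of the floor. That run says nothing about calls near the floor or near the size rule. With 1 array per group, precision is limited by the number of arrays. The alternatives were the mean over probe sets, no floor or the 60th percentile (log2 6.57), median or loess centring (fraction 0.3), poly-A spike-in scaling, leaving out _s_at, _x_at and _a_at probe sets, and a 2-fold rule. The lung genes and all lists were chosen with earlier results of these data known. Named genes were all 10, the 3 largest called in each list with probe sets going 1 way, 13 genes fixed by name, the neighbours in the order of differences, and a few others, such as Lmo7 and Eif2s3y, chosen after their values were seen.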

Additional observations from a re-analysis of the deposited data

How the results depend on the processing

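The 10 lung genes counted as lower numbered 0 under all 8 alternatives, and the 8 above the main floor were above 0 wherever they were read. The count of higher genes was 4 under the 60th percentile floor, where 6 could be read and 4.34% of all genes were higher. It was 4 under median centring (3.54% of all genes) and 4 under loess centring (3.9%), with Aqp5 no longer counted in either. At 2-fold it was 3 (Sftpc, Cxcl15 and Ager), against 0.908% of all genes, and with no floor 6, against 3.32%. It was 8 under poly-A spike-in scaling, where 70.9% of all genes were higher and the median of all genes was 0.74. The median of the lung genes was 0.95 with the higher floor and 1.38 under spike-in scaling, and 0.61 to 0.63 otherwise. Among the other lung epithelial genes, 8 were higher and 2 lower in the main setting. Under spike-in scaling 36 were higher and 0 lower, against 70.9% and 1.29% of all genes. At 2-fold, 3 were higher and 1 lower, against 0.908% and 2.31%. Without _s_at, _x_at and _a_at probe sets, 5 of 39 readable ones were higher, against 3.43%. Lower ones numbered 1 when probe sets were averaged (5.58% of all genes) and 1 with the higher floor (7.4%). Averaging gave Cxcl15 a difference of 1.79. Of 54 values of single lung genes under the alternatives, 45 stayed within the probe set SD of the main value, 9 moved further and 0 changed sign after being called. Much of this was fixed by the settings, so the tally is no check of the values. A changed floor leaves a brightest probe set as it is, and averaging leaves a gene with 1 probe set as it is. Those that moved were all 8 genes under spike-in scaling, and Cxcl15 when probe sets were averaged. The cause of these changes, beyond the fewer probe sets read or the constant added by scaling, was not tested. No paired analysis was possible because each genotype had 1 array and the result comes from no test.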
